A study of Mus musculus with 4 samples.

Results

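The 10 genes described here encode the A- and B-type cyclins (Ccna1, Ccna2, Ccnb1, Ccnb2, Ccnb3), the kinases they bind (Cdk1, Cdk2) and the phosphatases that switch those kinases on (Cdc25a, Cdc25b, Cdc25c). They were taken by gene symbol from the 19445 genes of the joined expression table, and all 10 were found. Expression was measured as FPKM, a read density per transcript length and per library size. The cells were testicular pachytene spermatocytes, the meiotic prophase cells of the male germ line, from adult C57BL/6 mice. The compared groups were Tcfl5+/- cells, in which 1 copy of the transcription factor gene Tcfl5 was disrupted (2 libraries), and Tcfl5+/+ cells (2 libraries). Nothing in the sources used here states which part of Tcfl5 the disrupted copy lacks, or whether the replicates came from separate animals, so p-values measure the spread between these libraries, which may be technical.

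Cyclins are the regulatory subunits of cyclin-dependent kinases, and CDK1 depends on a bound cyclin for its activity. CDK1 with a B-type cyclin drives cells into division, WEE1 and PKMYT1 hold it inactive by phosphorylating it, and CDC25 phosphatases remove that phosphate. Pachytene spermatocytes build up this machinery before the first meiotic division. Cyclin A1 is the cyclin of male germ cells, and male mice without it are sterile because their spermatocytes stop before that division. CDK2 is needed earlier, at the telomeres of meiotic chromosomes.

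Tcfl5 itself was at 137.0 and 188.5 FPKM in the Tcfl5+/- libraries, against 248.7 and 237.7 FPKM in the Tcfl5+/+ libraries. Both heterozygote values lay below both wild-type values (log2 difference -0.59, SE 0.16, limma-trend with Benjamini-Hochberg adjustment, adjusted p = 0.242), and the difference was -0.37 without heterozygote replicate 1 and -0.82 without heterozygote replicate 2. The 9 markers of pachytene cells fixed for the check were all listed, with summed levels of 5324 and 5633 FPKM in Tcfl5+/- and 5462 and 5639 FPKM in Tcfl5+/+ libraries. Most of each sum was Ldhc, at 3702 and 3858 FPKM in Tcfl5+/- and 3610 and 3858 FPKM in Tcfl5+/+ libraries. Of the 9, 2 were higher and 3 lower in both heterozygote libraries, against 23.6% of all tested genes higher and 19.0% lower. Markers of other testis cells were present as well. The 13 spermatid markers summed to 2915 and 2389 FPKM in Tcfl5+/- libraries and to 1999 and 897.4 FPKM in Tcfl5+/+ libraries. The 9 Sertoli markers summed to 568.0 and 196.2 FPKM in Tcfl5+/- libraries and to 583.9 and 380.8 FPKM in Tcfl5+/+ libraries. The 6 Leydig markers summed to 575.1 and 309.4 FPKM in Tcfl5+/- and 529.2 and 332.4 FPKM in Tcfl5+/+ libraries, and the 9 spermatogonial markers to 36.3 and 19.6 FPKM in Tcfl5+/- and 35.5 and 19.7 FPKM in Tcfl5+/+ libraries. Spermatid sums were thus higher in both heterozygote libraries, while Sertoli, Leydig and spermatogonial sums overlapped. The spermatid gap was not shared by all 13 markers. In 6 of the 13, both heterozygote values were above both wild-type values, and in 0 below, against 23.6% and 19.0% of all tested genes. Among these 6 were Prm1, Prm2, Tnp1 and Tnp2. The groups overlapped for the rest of the 13, such as Smcp, at 238.8 and 185.3 FPKM in Tcfl5+/- and 286.7 and 146.7 FPKM in Tcfl5+/+ libraries. The 5 peritubular markers summed to 13.3 and 15.8 FPKM in Tcfl5+/- and 8.94 and 14.2 FPKM in Tcfl5+/+ libraries, and the 5 macrophage markers to 1.38 and 0.860 FPKM in Tcfl5+/- and 1.13 and 1.46 FPKM in Tcfl5+/+ libraries. The 8 markers of preleptotene to zygotene stages summed to 107.1 and 120.1 FPKM in Tcfl5+/- and 88.1 and 97.7 FPKM in Tcfl5+/+ libraries. Most of each sum was Spo11, at 78.2 and 92.0 FPKM in Tcfl5+/- and 54.65 and 66.2 FPKM in Tcfl5+/+ libraries. Of the 7 tested, 2 were higher and 4 lower in both heterozygote libraries, against the same 23.6% and 19.0% of all tested genes. Their median log2 difference was -0.41, against -0.02 over all tested genes. Among the markers of all these cell types, only C1qa and Mei4 were at 0 in a library. The part of these cells in the results was not tested, and in such bulk samples fewer cells of a type and less RNA per cell cannot be told apart.

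Ccna1, Ccnb1 and Cdc25c were lower in both Tcfl5+/- libraries than in either Tcfl5+/+ library, while the values of Ccnb2 and Cdk2 overlapped between the genotypes. Of all tested genes, 19.0% were lower in this sense. The proximal promoters of Ccna1, Ccnb1 and Ccnb2 are shown so that cyclin genes with and without such a gap can be compared by sequence, with that of Cdk1, their shared partner. The sequences are RefSeq's on GRCm38.p6, the 250 bases before the annotated start, 5′ to 3′ along the gene. Capitals mark each CCAAT, the element bound by NF-Y, in either orientation. They also mark each TTTGAA, a form of the cell cycle homology region bound by the MuvB complex.
Ccna1 promoter: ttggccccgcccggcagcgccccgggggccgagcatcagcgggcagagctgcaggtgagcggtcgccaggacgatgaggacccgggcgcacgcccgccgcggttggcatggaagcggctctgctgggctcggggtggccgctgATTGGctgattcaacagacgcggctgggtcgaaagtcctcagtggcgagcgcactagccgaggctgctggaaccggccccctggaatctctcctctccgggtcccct
Ccnb1 promoter: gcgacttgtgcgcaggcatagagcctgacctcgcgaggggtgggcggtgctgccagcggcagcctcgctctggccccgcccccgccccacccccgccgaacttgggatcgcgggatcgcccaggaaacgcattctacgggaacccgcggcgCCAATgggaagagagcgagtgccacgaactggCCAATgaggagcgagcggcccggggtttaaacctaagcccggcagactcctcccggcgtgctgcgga
Ccnb2 promoter: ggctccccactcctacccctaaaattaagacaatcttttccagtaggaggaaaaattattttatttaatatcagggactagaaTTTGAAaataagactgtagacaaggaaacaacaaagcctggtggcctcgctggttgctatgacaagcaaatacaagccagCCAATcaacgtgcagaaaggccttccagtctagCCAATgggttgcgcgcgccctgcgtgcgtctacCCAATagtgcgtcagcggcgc
Cdk1 promoter: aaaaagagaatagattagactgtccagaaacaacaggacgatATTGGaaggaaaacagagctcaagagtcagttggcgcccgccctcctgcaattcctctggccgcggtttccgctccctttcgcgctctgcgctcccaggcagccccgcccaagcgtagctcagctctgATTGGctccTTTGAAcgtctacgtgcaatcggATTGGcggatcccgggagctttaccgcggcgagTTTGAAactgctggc
These lie on the minus strand at chr3:55055056-55055305 (Ccna1), chr13:100786487-100786736 (Ccnb1), chr9:70421555-70421804 (Ccnb2) and chr10:69352913-69353162 (Cdk1). The start used for Ccna1 is 275 bases inside the gene end given in the deposited files, and the other 3 starts are at it. The 250 bases shown for Ccna1 thus lie wholly inside the gene as the files place it. Bases upstream of that gene end were not searched.

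These 4 promoters differed in how many of both elements they held. Over the 250 bases before and 50 bases after the start, searched on both strands, Ccnb2 and Cdk1 each held 3 CCAAT and 2 TTTGAA, Ccnb1 held 2 CCAAT and no TTTGAA, and Ccna1 held 1 CCAAT and no TTTGAA. Adjacent CCAAT boxes were 33 bases apart at both intervals in Ccnb2, 32 bases apart in Ccnb1 and 32 bases apart for the nearer pair in Cdk1. Cdc25a held 2 CCAAT, Cdk2 and Cdc25b held 1 each, and Ccnb3 none, all without TTTGAA. The starts used for Cdc25a and Ccnb3 lie 247 and 16 bases inside the genes as the deposited files place them. By that placing, nearly all of the Cdc25a window is inside its gene, as is all of the Ccna1 window. The counts did not separate members with a gap from those without one, since Cdk2 and Cdc25a, whose groups overlapped, held as many of both elements as Ccna1 and Ccnb1 did. For Ccna1 and Cdc25a this holds for the RefSeq starts only, since sequence upstream of the file starts was barely searched or not searched. The promoters of Ccna2 and Cdc25c were not used here. Of 32851 promoter windows of that length in the RefSeq table, 37.4% held a CCAAT, 11.7% at least 2 and 3.37% at least 3, while 17.9% held TTTGAA and 7.52% held CCAAT together with TTTGAA or TTCGAA. That second form of the homology region stood in the Cdc25b window alone of the 8 members matched in the table, and in 1.56% of all windows. Other forms of the region were not searched for, so a window without these 2 is not shown to lack it. None of the 8 windows held the E-box CACGTG (7.15% of all windows), and only that of Ccnb3 held CACGCG (9.27%). The short MYB core AACNG stood in 7 of the 8, all but Ccnb2, and in 80.3% of all windows, so its presence separates few genes. These matches describe letters in the windows, and binding was not measured in the data used here.

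Cyclin A1 had the largest log2 difference of any tested member. Ccna1, on chromosome 3 from 55045469 to 55055330 of GRCm38, was at 96.2 and 82.0 FPKM in Tcfl5+/- libraries, against 142.7 and 160.3 FPKM in Tcfl5+/+ libraries. The 2 groups were well separated, since the higher heterozygote value was under the lower wild-type value by more than the libraries of either genotype differed from each other. The means were 89.1 ± 10.04 FPKM in Tcfl5+/- and 151.5 ± 12.4 FPKM in Tcfl5+/+ libraries (SD, n = 2 each), which puts Ccna1 at 58.8% of its wild-type mean. The log2 difference of log2(FPKM + 1) was -0.76 (SE 0.11, 95% interval -1.05 to -0.47). It did not pass limma-trend with genotype as the only term (Benjamini-Hochberg adjusted p = 0.141), nor did any of the 13333 tested genes, of which the smallest adjusted p was 0.116. A log2 difference as low or lower was found for 1.69% of tested genes. An annotated antisense transcript, 4931419H13Rik, overlaps the first 89 bases of the Ccna1 gene as the files place it, and no strand-keeping step is given in the labels' protocol. Cyclin A1 was the most abundant of the 10 messages in Tcfl5+/+ libraries, and in Tcfl5+/- libraries it stood below Ccnb2 in both.

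Its somatic relative cyclin A2, which serves DNA replication and mitotic entry in dividing cells, was scarce. Ccna2 was at 1.65 and 1.51 FPKM in Tcfl5+/- libraries, against 1.78 and 1.12 FPKM in Tcfl5+/+ libraries, so the heterozygote values lay between the wild-type ones. The log2 difference was 0.09 (SE 0.22, 95% interval -0.48 to 0.65), and its sign turned without wild-type replicate 2 (-0.11). The last 863 bases of Ccna2 overlap Exosc9 on the other strand, a gene for an RNA exosome subunit at 33.9 to 40.3 FPKM, so reads of both genes cannot be told apart there without strand. Per length, Ccna1 was 58.3 and 54.3 times as abundant as Ccna2 in Tcfl5+/- libraries, against 80.2 and 143.1 times in Tcfl5+/+ libraries.

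**Figure D1:**
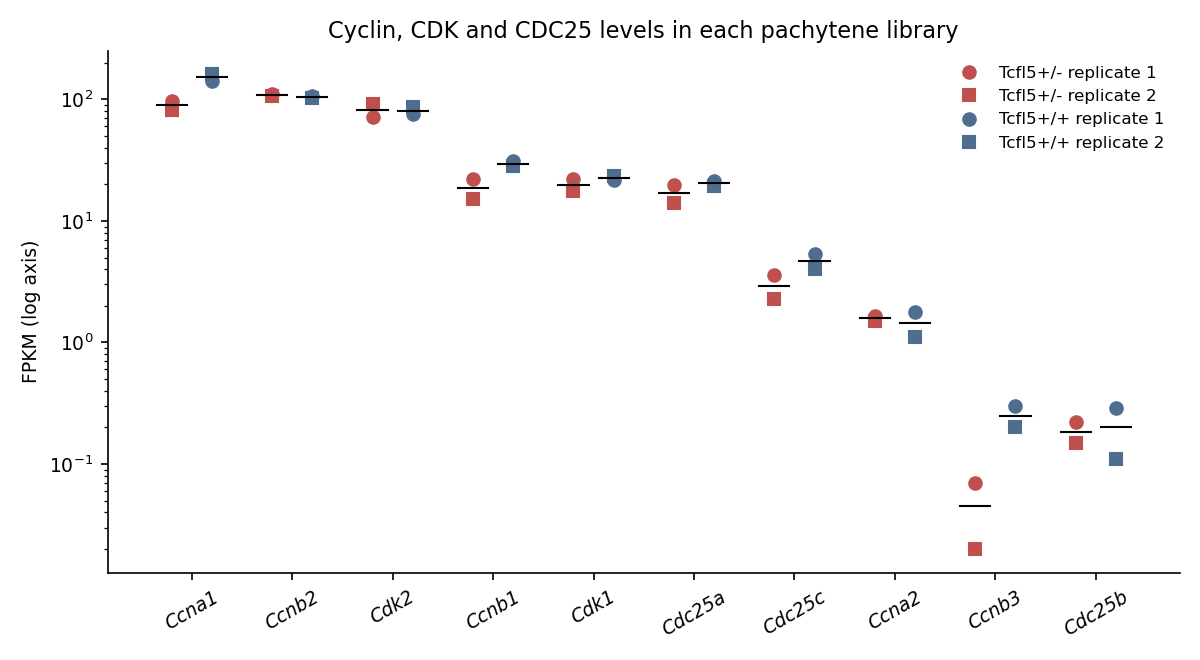
FPKM of the 10 genes in each library on a log axis, ordered by the wild-type mean, with Tcfl5+/- libraries left and Tcfl5+/+ libraries right of each position, and a bar at each group mean. Ccna1, Ccnb1, Cdc25c and Ccnb3 show heterozygote points wholly below the wild-type points, while Ccnb2 and Cdk2 overlap.

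The B-type cyclins differed from one another. Cyclin B1, the B-type cyclin that mouse embryos cannot do without, was also lower in both Tcfl5+/- libraries. Ccnb1 (chromosome 13, 100778739 to 100786486 of GRCm38) was at 21.9 and 15.1 FPKM in Tcfl5+/- libraries, against 30.9 and 28.3 FPKM in Tcfl5+/+ libraries. The gap between the groups was narrower than the difference between the 2 heterozygote libraries, unlike that of Ccna1, and the wild-type libraries were closer together. The means of 18.5 ± 4.87 FPKM in Tcfl5+/- and 29.6 ± 1.80 FPKM in Tcfl5+/+ libraries (SD, n = 2 each) put Ccnb1 at 62.5% of its wild-type mean. The log2 difference was -0.67 (SE 0.20, 95% interval -1.18 to -0.16, limma-trend, Benjamini-Hochberg adjusted p = 0.263). Without heterozygote replicate 2 it was -0.41.

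Cyclin B2, which mice can lack and stay fertile, had overlapping groups. Ccnb2 (chromosome 9, 70407689 to 70421554) was at 110.6 and 105.8 FPKM in Tcfl5+/- libraries, against 107.3 and 103.5 FPKM in Tcfl5+/+ libraries. Its 4 values spanned less, in proportion to their mean, than those of any other tested member, and the groups interleaved. The log2 difference was 0.04 (SE 0.07), with a 95% interval of -0.15 to 0.23 that leaves out a change of the size estimated for Ccna1 or Ccnb1. RefSeq lists a pseudogene copy of Ccnb1 on chromosome 7 and of Ccnb2 on chromosome 8, and whether their reads were counted under the parent genes was not tested.

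Cyclin B3, an X-linked cyclin whose message in male mice is known from early prophase, was near the lower end of what the files list. Ccnb3 was at 0.07 and 0.02 FPKM in Tcfl5+/- libraries, against 0.30 and 0.20 FPKM in Tcfl5+/+ libraries. The groups did not overlap, as was the case with the heterozygote lower for 17.3% of all genes above 0 in a library, but the gene was under the minimum mean of 0.5 FPKM and was not tested. Among genes with a single transcript of nearly its length (4554 bases, within 5%), the most frequent low value was 0.05 FPKM in replicate 1 and 0.01 FPKM in replicate 2 of both genotypes. The heterozygote values were close to these most frequent low values, which need not be the smallest that are listed.

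The make-up of the summed cyclin messages is given here by library, without a test. The summed level of the 5 cyclins was 230.4 and 204.4 FPKM in Tcfl5+/- libraries, against 282.9 and 293.4 FPKM in Tcfl5+/+ libraries. Ccna1 made up 41.7% and 40.1% of that sum in Tcfl5+/- libraries, against 50.4% and 54.6% in Tcfl5+/+ libraries. Ccnb2 made up 48.0% and 51.8% in Tcfl5+/- libraries, against 37.9% and 35.3% in Tcfl5+/+ libraries. The leading cyclin message was thus Ccnb2 in both heterozygote libraries and Ccna1 in both wild-type libraries. Ccnb1 held 9.52% and 7.36% in Tcfl5+/- libraries, against 10.9% and 9.65% in Tcfl5+/+ libraries, with the groups apart by a small margin.

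**Figure D2:**
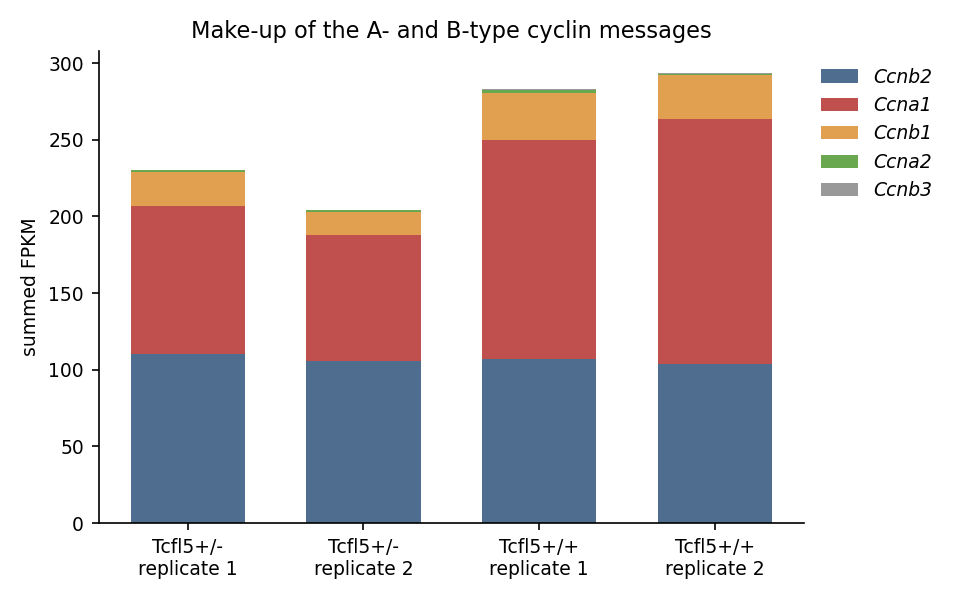
Summed FPKM of the 5 A- and B-type cyclin genes in each library, split by gene, Tcfl5+/- libraries left. The Ccnb2 part stays between 103.5 and 110.6 FPKM in all 4 libraries, while the Ccna1 part is 96.2 and 82.0 FPKM in Tcfl5+/- and 142.7 and 160.3 FPKM in Tcfl5+/+ libraries.

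Of the kinases, Cdk1, the partner of the B-type cyclins, was at 21.9 and 17.6 FPKM in Tcfl5+/- libraries, against 21.7 and 23.4 FPKM in Tcfl5+/+ libraries. Only heterozygote replicate 2 lay below the wild-type values, so the groups overlapped. The log2 difference was -0.19 (SE 0.15, 95% interval -0.57 to 0.19), and it was -0.037 without heterozygote replicate 2 and -0.34 without heterozygote replicate 1. Cdk2 was at 71.6 and 90.8 FPKM in Tcfl5+/- libraries, against 75.9 and 85.9 FPKM in Tcfl5+/+ libraries. Its wild-type values lay inside the heterozygote ones, and the log2 difference was -0.0014 (SE 0.14, 95% interval -0.37 to 0.36). The gene shares 857 bases with Pmel on the other strand, a pigment cell gene listed at 8.0 to 9.23 FPKM. Per length, Cdk1 was 0.306 and 0.193 times as abundant as Cdk2 in Tcfl5+/- libraries, against 0.286 and 0.273 times in Tcfl5+/+ libraries, and these ratios overlapped.

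The phosphatases were uneven in level and in difference. Cdc25a, known for the G1 to S step and also for mitotic entry, was the main one, with 83.8% and 85.2% of the summed CDC25 messages in Tcfl5+/- libraries and 79.3% and 82.4% in Tcfl5+/+ libraries. Its levels were 19.8 and 14.1 FPKM in Tcfl5+/- libraries, against 21.5 and 19.3 FPKM in Tcfl5+/+ libraries. The ranges met narrowly, since heterozygote replicate 1 stood just above wild-type replicate 2. The log2 difference was -0.27 (SE 0.19, 95% interval -0.76 to 0.22), and it was -0.043 without heterozygote replicate 2 and -0.50 without heterozygote replicate 1. Cdc25c, which activates CDK1 at mitotic entry and which mice can lack, was at 3.59 and 2.29 FPKM in Tcfl5+/- libraries, against 5.33 and 4.01 FPKM in Tcfl5+/+ libraries. All heterozygote values were lower, at 63.0% of the wild-type mean, but heterozygote replicate 1 and wild-type replicate 2 were close. The log2 difference was -0.54 (SE 0.26, 95% interval -1.21 to 0.14, limma-trend, Benjamini-Hochberg adjusted p = 0.504), and it was -0.30 without heterozygote replicate 2 and -0.78 without heterozygote replicate 1. The predicted gene Gm3550 lies within Cdc25c on the other strand. Cdc25b, which mouse oocytes need to resume meiosis, was at 0.220 and 0.150 FPKM in Tcfl5+/- libraries, against 0.290 and 0.110 FPKM in Tcfl5+/+ libraries, with overlapping groups and a mean too low to be tested. It overlaps 335 bases of Spef1, a sperm flagellar gene at 31.7 to 36.1 FPKM on the other strand.

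Across the members, 8 of 10 passed the minimum mean of 0.5 FPKM, and 0 of those 8 passed limma-trend at an adjusted p under 0.05, against 0% of all 13333 tested genes. A missed threshold with 2 libraries per genotype does not show that levels were equal. In simulated data, 0 of 200 genes changed by a log2 of 1 passed, and every tested member differed by less. At an unadjusted p under 0.05, 2 of the 8 were lower in Tcfl5+/- (Ccna1 and Ccnb1) and 0 higher, against 5.57% of tested genes lower and 7.63% higher. In 3 of the 8 (Ccna1, Ccnb1, Cdc25c) both heterozygote libraries were below both wild-type libraries, and in 0 of 8 above, against 19.0% of tested genes below and 23.6% above. The median log2 difference of the 8 was -0.23, against -0.02 over all tested genes, and 6 of the 8 were below 0, against 52.3% of tested genes. An exact permutation test of a single gene over 2 and 2 libraries cannot give a two-sided p below 0.333.

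**Figure D3:**
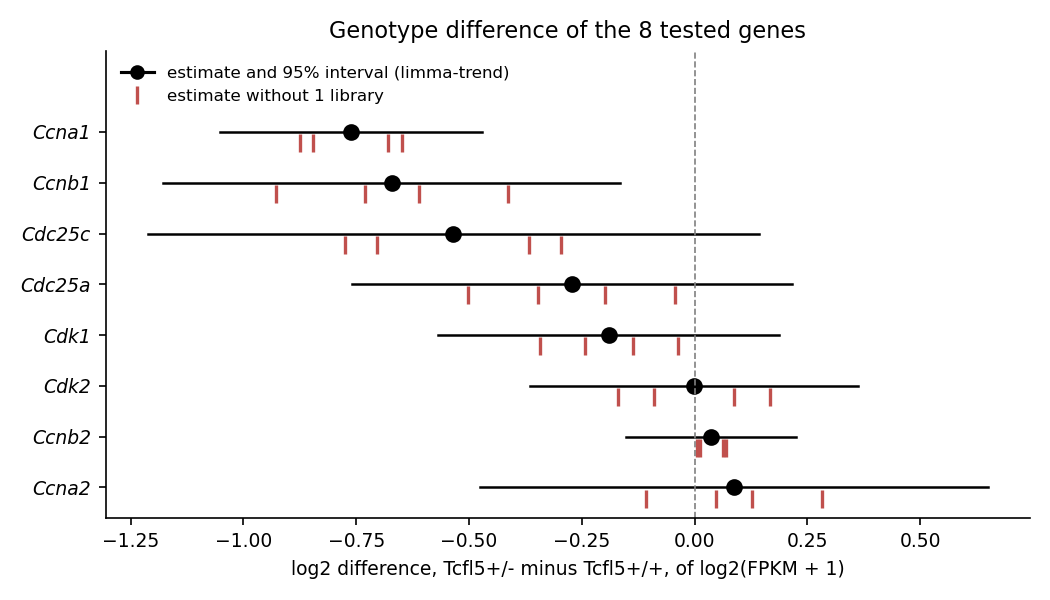
Difference between genotypes on the log2(FPKM + 1) scale, Tcfl5+/- minus Tcfl5+/+, for the 8 tested genes (points, with 95% limma-trend intervals), and the same estimate with each library left out (red ticks). The ticks of Ccna1 (-0.88 to -0.65), Ccnb1 (-0.93 to -0.41) and Cdc25c (-0.78 to -0.30) all lie below 0, and those of Cdk2 fall on both sides.

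Ratios between related genes within a library do not depend on how that library was scaled. The Ccnb1 to Ccnb2 ratio was 0.198 and 0.142 in Tcfl5+/- libraries, against 0.288 and 0.273 in Tcfl5+/+ libraries. The wild-type libraries were nearly equal and both heterozygote ratios were below them, with a mean log2 ratio of -2.57 ± 0.34 in Tcfl5+/- and -1.83 ± 0.05 in Tcfl5+/+ (SD, n = 2 each). The Ccna1 to Ccna2 log2 ratio was 5.81 ± 0.07 in Tcfl5+/- and 6.74 ± 0.59 in Tcfl5+/+ libraries (SD, n = 2 each), with the spread of the wild type coming mostly from the scarce Ccna2. The Cdc25c to Cdc25b ratio was 16.3 and 15.3 in Tcfl5+/- libraries, against 18.4 and 36.5 in Tcfl5+/+ libraries, and rests on Cdc25b values of at most 0.290 FPKM.

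**Figure D4:**
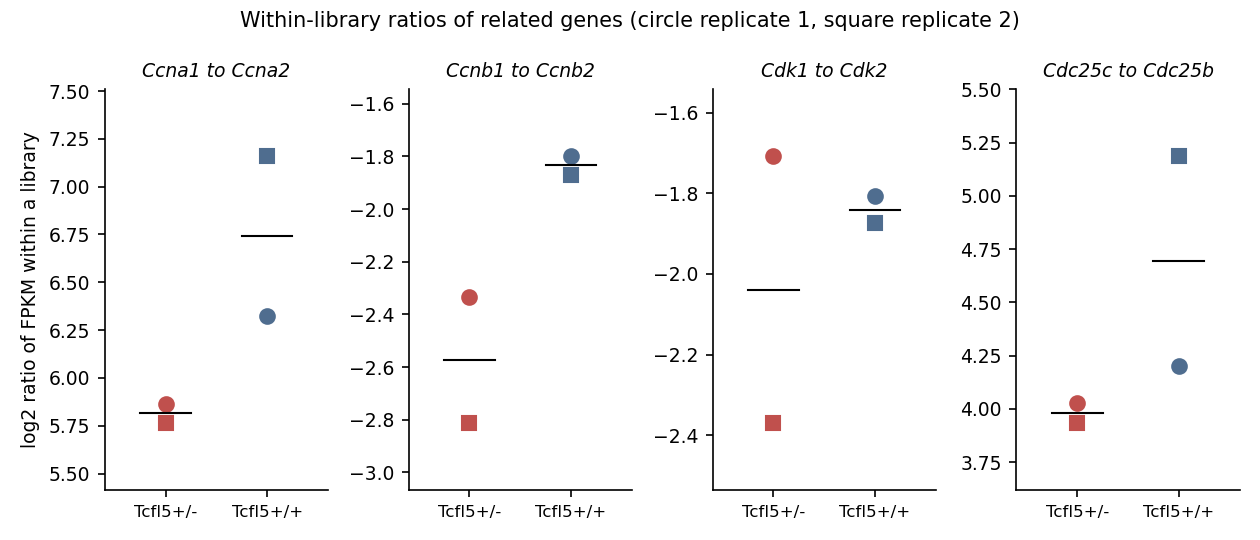
Log2 ratio of FPKM between related genes in each library (circles replicate 1, squares replicate 2, bars group means), Tcfl5+/- left of Tcfl5+/+ in each panel. The Ccnb1 to Ccnb2 ratio is -2.33 and -2.81 in Tcfl5+/- and -1.80 and -1.87 in Tcfl5+/+ libraries, and the Cdk1 to Cdk2 ratios overlap.

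Over the 4 libraries, the profiles of log2(FPKM + 1) nearest to that of Ccna1, by Euclidean distance after centring and among 7482 genes averaging 5 FPKM or more, were those of Glt1d1, a glycosyltransferase-domain gene (distance 0.04), the oxysterol-binding gene Osbpl1a (0.05) and Prdm8, a PR-domain gene (0.06). Glt1d1 was at 23.1 and 20.1 FPKM in Tcfl5+/- libraries, against 35.7 and 40.4 FPKM in Tcfl5+/+ libraries. Nearest to Ccnb1 were Tomm20l (0.03), Dyrk3, a dual-specificity kinase gene (0.08), and Pex6, a gene of peroxisome biogenesis (0.12). Tomm20l was at 43.4 and 30.4 FPKM in Tcfl5+/- libraries, against 60.3 and 55.0 FPKM in Tcfl5+/+ libraries. Ccna1 and Ccnb1 were 0.30 apart on this measure, and Ccnb1 and Cdc25c 0.21.

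Other genes of the CDK pathway were read from lists drawn up by function, and 0 of their tested members passed the adjusted threshold. Of 6 other cell cycle cyclins 4 were tested, 1 above and 3 below 0, with a median log2 difference of -0.12. Ccne1, the cyclin E1 partner of CDK2, was at 3.27 and 3.17 FPKM in Tcfl5+/- libraries, against 5.00 and 4.87 FPKM in Tcfl5+/+ libraries. It was lower in both heterozygote libraries, with little spread within either genotype (log2 difference -0.49, SE 0.18, limma-trend adjusted p = 0.357). The groups overlapped for Ccnf, at 8.41 ± 1.35 FPKM in Tcfl5+/- and 7.58 ± 0.283 FPKM in Tcfl5+/+ libraries, and for Ccnd3, at 12.9 ± 6.60 FPKM in Tcfl5+/- and 14.9 ± 8.34 FPKM in Tcfl5+/+ libraries (SD, n = 2 each).

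Of 10 other CDKs and CDK activators, all tested, 5 were above and 5 below 0, with a median of -0.00025. The groups did not overlap in 3 of the 10 with Tcfl5+/- above and in 4 below, against 23.6% of all tested genes above and 19.0% below. The 3 above were the genes of smallest p. Mnat1 and Ccnh encode the assembly factor and the cyclin of the CDK-activating kinase. Mnat1 was at 25.6 and 26.7 FPKM in Tcfl5+/- libraries, against 18.9 and 20.3 FPKM in Tcfl5+/+ libraries, and Ccnh was at 30.3 ± 3.02 FPKM in Tcfl5+/- and 23.1 ± 1.95 FPKM in Tcfl5+/+ libraries (SD, n = 2 each). Spdya, whose product activates CDK2 at telomeres in meiotic prophase, was at 143.9 and 148.1 FPKM in Tcfl5+/- libraries, against 106.4 and 124.9 FPKM in Tcfl5+/+ libraries (log2 difference 0.34, SE 0.10, limma-trend adjusted p = 0.264). Its direction was opposite to that of the cyclins A1 and B1.

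Of 11 CDK inhibitors and WEE-family kinases, 10 were tested, 4 above and 6 below 0, with a median of -0.05. Cdkn2a, which encodes the inhibitors p16INK4a and, in another frame, ARF, was at 7.14 and 8.27 FPKM in Tcfl5+/- libraries, against 2.73 and 3.76 FPKM in Tcfl5+/+ libraries. That was the largest log2 difference among the tested pathway genes, with means 2.37-fold apart (log2 difference 1.04, SE 0.22, limma-trend adjusted p = 0.182). The 2 kinase genes that hold CDK1 inactive differed in direction. Pkmyt1 was at 63.0 and 73.4 FPKM in Tcfl5+/- libraries, against 50.3 and 45.9 FPKM in Tcfl5+/+ libraries (log2 difference 0.49, SE 0.11, limma-trend adjusted p = 0.196), with both heterozygote libraries higher. Wee1 was at 9.48 and 6.98 FPKM in Tcfl5+/- libraries, against 12.7 and 10.4 FPKM in Tcfl5+/+ libraries (log2 difference -0.45, SE 0.21, limma-trend adjusted p = 0.468), with both lower.

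Of 15 regulators of entry into and exit from M phase, all tested, 5 were above and 10 below 0, with a median of -0.06. The groups did not overlap in 4 of the 15 with Tcfl5+/- below and in 0 with it above, against 19.0% of all tested genes below and 23.6% above. Ensa, whose phosphorylated product inhibits the phosphatase that opposes CDK1, was at 52.5 and 53.8 FPKM in Tcfl5+/- libraries, against 69.7 and 64.0 FPKM in Tcfl5+/+ libraries. Cdc20, an activator of the ubiquitin ligase that destroys cyclin B, was at 106.7 and 116.5 FPKM in Tcfl5+/- libraries, against 130.9 and 132.4 FPKM in Tcfl5+/+ libraries. The polo kinase gene Plk1 was at 46.5 and 35.2 FPKM in Tcfl5+/- libraries, against 52.9 and 55.0 FPKM in Tcfl5+/+ libraries, and shared with Ccnb1 the lowest value in heterozygote replicate 2. The limma-trend adjusted p of these 3 ran from 0.235 to 0.353.

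Of 10 transcriptional regulators of genes for G2 and M phase, all tested, 4 were above and 6 below 0, with a median of -0.18. The groups did not overlap in 1 of the 10 with Tcfl5+/- above and in 3 below, against the same 23.6% and 19.0% of all tested genes. Foxm1, a forkhead activator of mitotic genes, was at 30.7 and 24.5 FPKM in Tcfl5+/- libraries, against 36.1 and 37.1 FPKM in Tcfl5+/+ libraries (log2 difference -0.40, SE 0.13, limma-trend adjusted p = 0.305). Mybl1, the A-MYB activator of pachytene genes, was at 25.9 and 28.2 FPKM in Tcfl5+/- libraries, against 29.7 and 33.1 FPKM in Tcfl5+/+ libraries. Lin54, the MuvB subunit that contacts the cell cycle homology region, was at 5.83 and 4.36 FPKM in Tcfl5+/- libraries, against 6.90 and 6.51 FPKM in Tcfl5+/+ libraries. For all 3 the heterozygote values lay below the wild-type values.

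**Figure D5:**
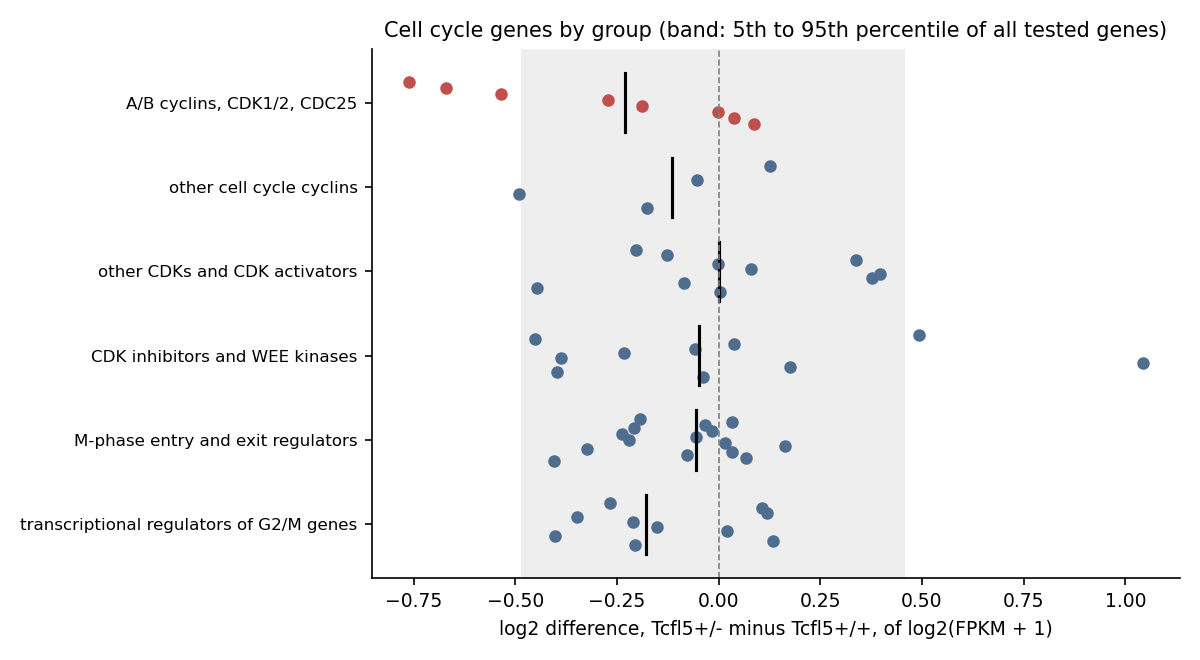
Log2 difference, Tcfl5+/- minus Tcfl5+/+, of each tested gene by group, with black bars at the group medians and a grey band from the 5th to the 95th percentile of all tested genes (-0.48 to 0.46). Ccna1, Ccnb1 and Cdc25c lie left of the band, Ccne1 lies at its left edge, and Cdkn2a and Pkmyt1 lie right of it.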

How the data were processed

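Polyadenylated RNA of 4 pachytene spermatocyte libraries was read from 1 end for 50 bases, per the labels' protocols. Values were deposited as FPKM per gene, per the file headers. The submitters' processing notes name RSEM 1.2.12, HISAT2 2.0.4 and Bowtie2 2.2.5 and the build GRCm38 (mm10), without saying which did what. Only FPKM was analysed here, so library depths are unknown and no counting interval is given. The authors' scaling by library total makes every value relative to the other genes.

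Tables were joined by Entrez gene identifier into 19445 genes, with a gene absent from a library set to 0 (1085 to 1491 genes a library) and 1593 genes without a value left out. The test was limma-trend (limma 3.58.1, R 4.3.3) on log2(FPKM + 1), two-sided, with genotype alone in the model. It covered 13333 genes averaging 0.5 FPKM or more, with Benjamini-Hochberg adjustment over all tested genes. The test was checked on simulated data in 5 draws per size of change. Of 200 genes changed by a log2 of 1, 0 were called in any draw. Of 200 changed by a log2 of 2, 158 to 166 were called, with at most 15 false calls. Every tested member differed by less than a log2 of 1. Such smaller changes were not simulated, but the test already missed all 200 genes at a log2 of 1. That no member passed therefore says little about whether it changed. Differences on the log2(FPKM + 1) scale understate changes of low genes. Named genes were the 10 members, Tcfl5, the 3 members of smallest p of each pathway list, and the 3 profiles nearest to Ccna1 and to Ccnb1. Members, lists and tests were chosen with earlier results of these data known. Promoters came from RefSeq (GRCm38.p6), and 8 of the members were matched. Overlapping genes came from GENCODE on GRCm38. Alternatives were another pseudocount, other filters, 4 scalings, other limma settings, the replicate number as a block and leaving out each library.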

Additional observations from a re-analysis of the deposited data

How the results depend on the processing

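The direction of Ccna1, Ccnb1, Cdc25c, Cdk1 and Cdc25a was the same in all 14 alternatives run, though Cdk1 and Cdc25a came near 0 without heterozygote replicate 2, and none of the 8 tested members passed in any alternative other than those named next. Ccna1 passed with quantile normalization (log2 difference -0.80, limma-trend adjusted p = 0.0202), which called 119 genes, while median-ratio scaling called 65 and none of the members. Over all 15 settings the adjusted p of Ccna1 ran from 0.000371 to 0.595 and that of Ccnb1 from 0.00578 to 0.764. The labels do not say what a replicate number shares between genotypes. Deviations of same-numbered libraries correlated at 0.529 across genes. With 2 libraries per genotype, such a correlation cannot show that a replicate number marks a pairing. With the replicate number as a block, which leaves less replication to estimate the spread, limma-trend called 1213 genes. Among them were Ccna1 (log2 difference -0.76, adjusted p = 0.000371), Ccnb1 (-0.67, adjusted p = 0.00578) and Tcfl5 (-0.59, adjusted p = 0.00339). These adjusted p rest on a pairing that the labels do not state. The cause of the changes between settings was not tested.

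The sign of Ccnb2 turned with scaling to an equal sum (-0.014) and quantile normalization (-0.013), that of Cdk2 under median ratios (0.003) and when leaving out heterozygote replicate 1 (0.17) or wild-type replicate 2 (0.09), and that of Ccna2 without wild-type replicate 2 (-0.11 to 0.28 over the libraries left out, and -0.17 to 0.17 for Cdk2). Non-overlapping members numbered 5 of 8 with scaling to an equal sum (Cdk1 and Cdc25a in addition, below) and 5 with quantile normalization (Cdc25a below and Ccna2 above), 4 with median-ratio and with upper-quartile scaling (Cdc25a in addition, below), and 5 to 6 without 1 library, where fewer libraries must be apart. Without 1 library the members' median log2 difference ran from -0.42 to -0.11, that of other cyclins from -0.32 to 0.090, of other CDKs and activators from -0.13 to 0.09, of M-phase regulators from -0.17 to -0.016 and of transcriptional regulators from -0.19 to -0.046. With scaling to an equal sum the medians were -0.051 for other CDKs and activators, -0.11 for M-phase regulators and -0.23 for transcriptional regulators. With quantile normalization that of M-phase regulators was -0.11, and with upper-quartile scaling that of transcriptional regulators was -0.21. Unknown depth limits what can be said of Ccnb3 and Cdc25b, and 2 libraries per genotype limit every comparison.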
